A study of Rattus norvegicus with 6 samples.

Results

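Motile cilia are beating, hair-like organelles, and in the brain they stand on the ependyma, the cell layer that lines the ventricles and moves cerebrospinal fluid along their walls. Each is built on an axoneme of microtubule doublets, along which dynein motors slide, while docking complexes, nexin-dynein links and radial spokes hold and regulate those motors. The forkhead factor Foxj1 switches on much of this gene set, together with factors of the RFX family. Genes were taken by symbol: those of axonemal dynein heavy chains (Dnah), dynein intermediate chains (Dnai), dynein assembly factors (Dnaaf), the outer dynein arm docking complex (Odad), the nexin-dynein regulatory complex (Drc), radial spokes (Rsph), tektins (Tekt) and cilia and flagella associated proteins (Cfap), with the regulators Foxj1, Rfx3 and Mcidas. On the array, 56 of 15443 named genes met this rule, with 58 of 30367 probes. The reference holds 100 protein-coding rat genes that meet it, so the array shows only part of the family, with 1 of 13 Dnah genes. Rfx3 and Mcidas had no probe that matched by RefSeq transcript and were not analysed here.

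Transcript levels were measured in rat brain tissue on 6 Agilent single-channel arrays, 1 per sample. Sham-operated rats gave 3 samples. The other 3 came after intracerebral hemorrhage (ICH), bleeding within the brain itself, and the labels call that tissue peripheral. All carry the label day 1, without a starting event, and strain, brain region and the way the bleed was made are not given in the sources used here. The comparison asks how the ICH tissue labelled peripheral differs from sham tissue. The labels describe each group's samples as biological replicates, and 0 of the array pairs had the same signals throughout. Spots well above background made up 81.8% to 85.4% of each array, 0 were saturated, and the number of arrays limits the precision. ICH arrays lay further apart than sham arrays, with correlations across genes of 0.949 to 0.980 within ICH and 0.985 to 0.991 within sham. Levels are log2 signals relative to the 75th percentile of the array, and each array's value for a probe is given as its distance from that probe's sham mean. Differences are ICH minus sham on the log2 scale, ± SE, with n = 3 arrays per group, from limma with Benjamini-Hochberg adjustment over 22179 rows.

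No motile cilia gene passed the test between ICH and sham. Of the 56 genes, 54 had a probe well above background on at least 3 arrays and were tested, and 0 had an adjusted p under 0.05 by limma, where the background over all rows was 0%. At an unadjusted p under 0.05 there were 3 genes, 5.56% of those tested, against a background of 14.7%. Of these, 2 were higher in ICH (background 6.15%) and 1 was lower (background 8.56%). In 3 genes the lowest ICH value exceeded the highest sham value, and in 5 the highest ICH value was under the lowest sham value, against backgrounds of 11% and 16.5%, so that the groups did not overlap in 8 genes, or 14.8%, against a background of 27.5%. The median difference over the 54 genes was −0.06, beside −0.04 over all rows, with 23 genes higher and 31 lower. That split depended on scaling, on array weights and on single arrays. With spike-in centring, where the median of all rows was 0.30, 44 were higher and 10 lower. Without ICH 2, 39 were higher and 15 lower, and without sham 2, 32 were higher and 22 lower. With array weights 35 were higher and 19 lower. The Cfap genes turned from 8 higher and 14 lower to 17 and 5 with spike-in centring. Both the share at an unadjusted p under 0.05 and the share without overlap lay below the background. The count at an unadjusted p under 0.05 was 1 without sham 1 and 1 without sham 3, or 1.85% of the genes in each, against 6.06% and 7.80% of all rows in those fits. The count without overlap was 14 without sham 2, 14 without ICH 1 and 13 without ICH 2, or 25.9%, 25.9% and 24.1%, where the shares over all rows were 37.0%, 36.2% and 43.5%.

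**Figure D1:**
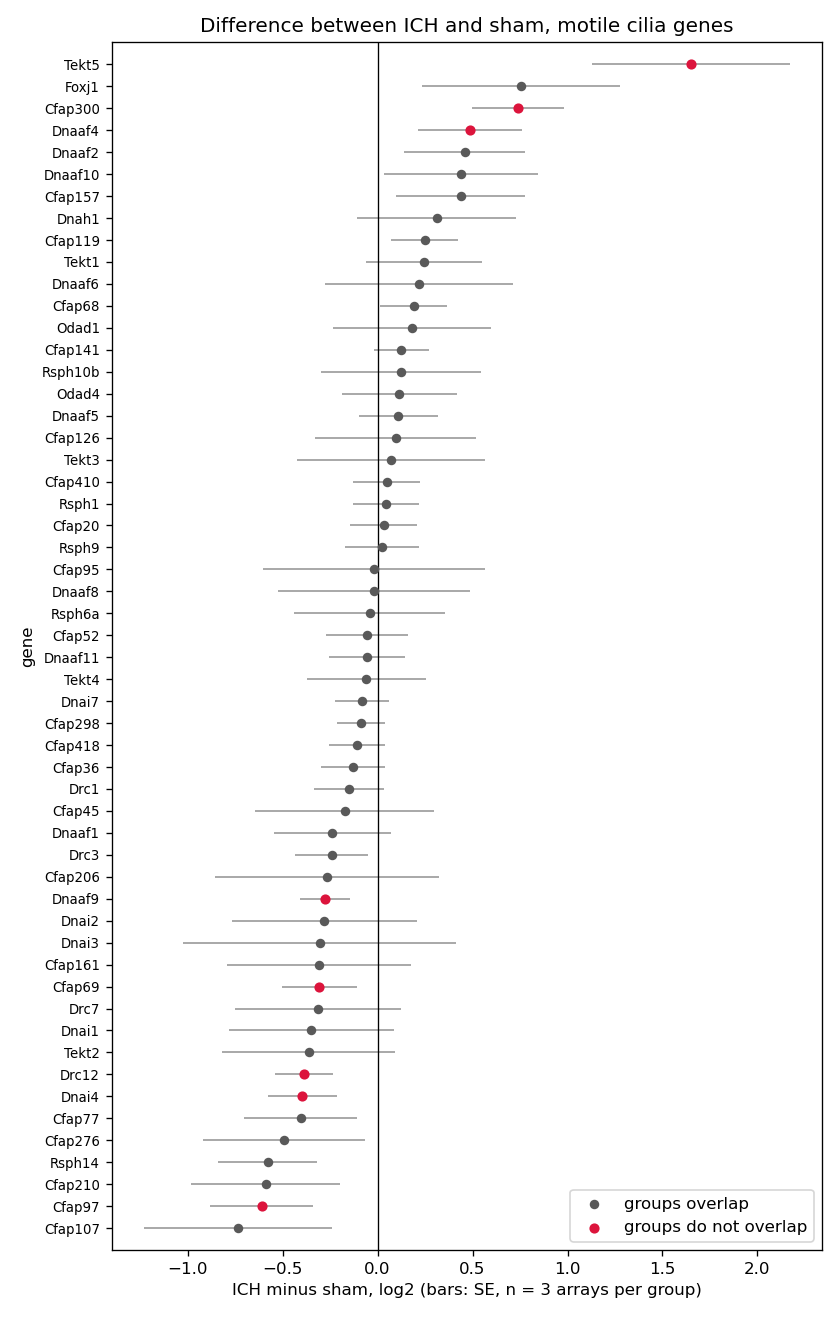
Difference between ICH and sham on the log2 scale (x axis) for each of the 54 tested motile cilia genes (y axis), with bars for the SE and n = 3 arrays per group. Red points mark the 8 genes whose groups do not overlap. Differences run from −0.73 for Cfap107 to 1.65 for Tekt5, and none passed the test. Cfap107 was well above background on only 2 of the 3 ICH arrays.

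What the genes shared was a pattern among arrays of the same group. Sham 2 lay above sham 1 in 45 of 54 genes, with a median gap of 0.42, where sham 2 was above sham 1 in 41.4% of all rows with a median of −0.05. ICH 1 lay above ICH 2 in 46 of 54, with a median gap of 0.66, against 55.5% of all rows and a median of 0.08. ICH 2 was the lowest of the 6 arrays in 37 genes, 68.5% beside 36.0% of all rows. In 20 genes, 37.0%, sham 2 was the highest and sham 1 the lowest sham array while ICH 1 was the highest and ICH 2 the lowest ICH array, an order found in 4.25% of all rows. These orders were picked out after the values were seen and are a description of 6 arrays, with no test. Median levels relative to sham were −0.20, 0.22 and −0.06 on sham 1 to 3, then 0.23, −0.41 and −0.02 on ICH 1 to 3. The high and the low arrays thus stood in both groups, and the medians of the groups overlapped. With spike-in centring, which moved the median gap between ICH 1 and ICH 2 over all rows to −0.46, ICH 1 was above ICH 2 in 30 genes against 23.0% of all rows, and the median gap of the motile cilia genes was 0.12. Their median on ICH 2 was then 0.29, above the sham medians of −0.27, 0.21 and 0.0042, so that ICH 2 was not low on that scale. With median centring their median on ICH 1 was 0.06, below that of 0.20 on sham 2. Spread was also wider than that of the typical row: the median standard deviation was 0.28 in the sham group and 0.47 in the ICH group, beside 0.14 and 0.31 over all rows. The genes had a median mean level of −2.80, beside −1.76 over all rows, and the part of signal strength in their spread was not tested. In tissue samples, fewer cells of a type and less RNA per cell cannot be told apart.

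**Figure D2:**
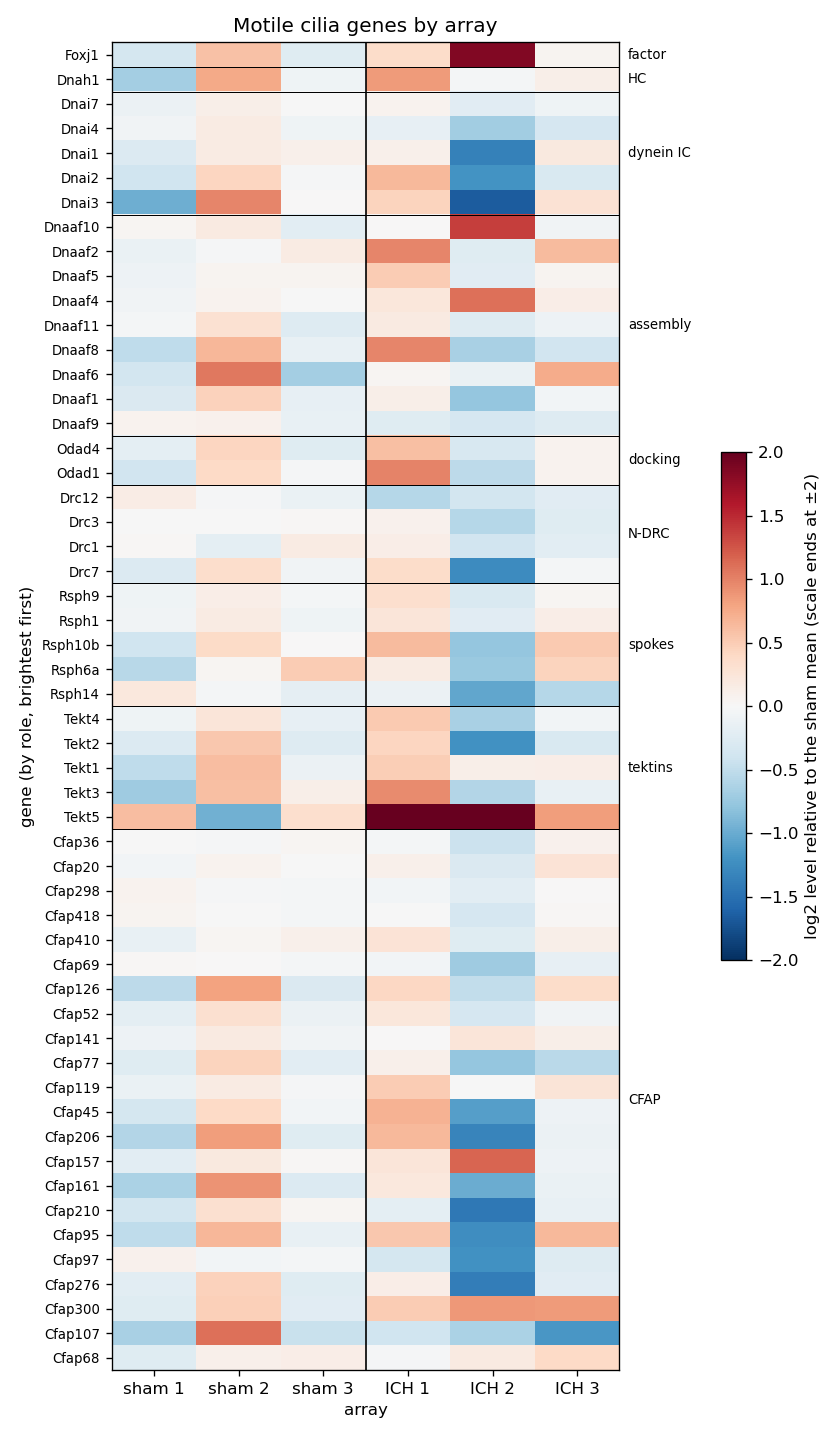
Each row is 1 of the 54 tested motile cilia genes, ordered by role, and each column an array; colour gives the log2 level relative to the sham mean, with the scale ending at ±2. Sham 2 and ICH 1 are mostly red, sham 1 and ICH 2 mostly blue (ICH 2 not so with spike-in centring), and Foxj1, at 1.85, stands out on ICH 2.

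Foxj1, the forkhead factor that drives motile ciliogenesis, did not share that order on the ICH side. It stood at −0.35, 0.59 and −0.24 on sham 1 to 3 and at 0.37, 1.85 and 0.05 on ICH 1 to 3. Its sham values followed the order of the axonemal genes, but ICH 2, where most of those genes were lowest, was its highest array. The difference between the groups was 0.76 ± 0.52, or 1.69-fold (adjusted p = 0.499 by limma), and without ICH 2 it was 0.21. Only 5 other genes had ICH 2 as the highest ICH array. Besides Cfap300, they were Dnaaf10 (1.38 on ICH 2), Cfap157 (1.17), Dnaaf4 (1.10) and Cfap141 (0.24). Cfap157 and Cfap141 were named after their values were seen. Under the other scalings and background corrections tried, Foxj1 stood at 1.75 to 2.54 on ICH 2.

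**Figure D3:**
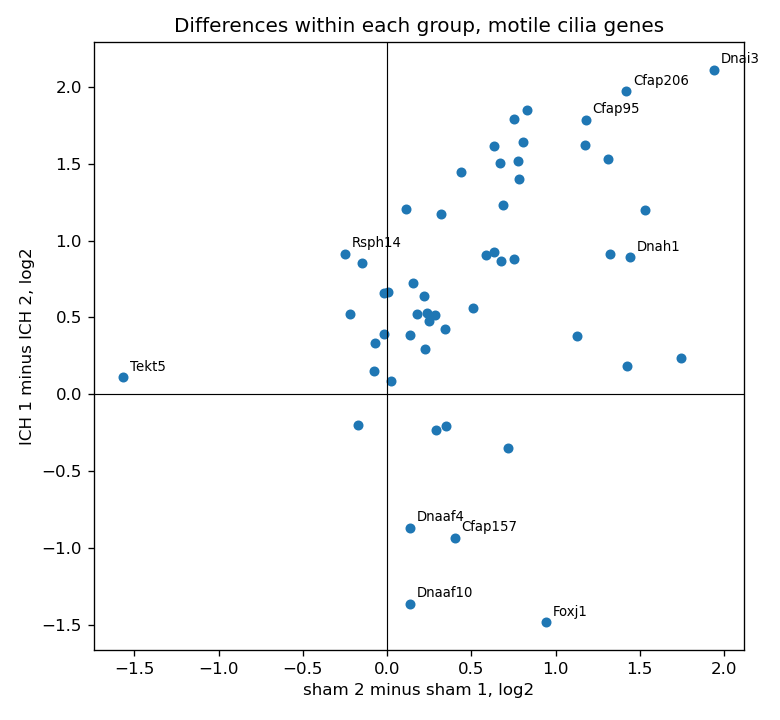
For each of the 54 motile cilia genes, sham 2 minus sham 1 (x axis, log2) is set against ICH 1 minus ICH 2 (y axis, log2). Most points lie in the upper right quadrant; Foxj1, Dnaaf10, Cfap157 and Dnaaf4 lie well below 0 on the y axis, and Tekt5 lies far to the left.

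Dynein arms are the motors of the axoneme. Dnah1, the heavy chain of an inner dynein arm and the only Dnah gene measured, stood at −0.68, 0.76 and −0.08 on sham 1 to 3 and at 0.86, −0.03 and 0.11 on ICH 1 to 3. Its sham range covered ICH 2 and ICH 3, and it differed by 0.31 ± 0.42 (adjusted p = 0.718 by limma). Among the 5 intermediate chains, which help attach the motor to the doublet, all 5 differences were negative, from −0.40 to −0.08, and none passed. With spike-in centring 3 of the 5 were positive, Dnai2 at 0.061, Dnai3 at 0.036 and Dnai7 at 0.26. Without ICH 2 another set of 3 was positive, Dnai1 at 0.15, Dnai2 at 0.18 and Dnai3 at 0.37, and Dnai3 alone turned without sham 2. With array weights Dnai2 at 0.036 and Dnai3 at 0.12 were positive. Dnai3 was well above background on only 2 of the 3 ICH arrays. Dnai1, of the outer arm, stood at −0.27, 0.17 and 0.11 on sham arrays and at 0.10, −1.35 and 0.20 on ICH 1 to 3, so that ICH 2 alone was low. Dnai4 stood at −0.07, 0.16 and −0.09 on sham arrays and at −0.16, −0.69 and −0.34 on ICH 1 to 3. Here every ICH value lay below every sham value, and the difference was −0.40 ± 0.18 (adjusted p = 0.366 by limma), or −0.25 without ICH 2. Dnai7 kept within a narrow range, from −0.11 to 0.12 on sham arrays and from −0.23 to 0.06 on ICH arrays. The median of the 5 chains was −1.20 on ICH 2 and 0.10 and −0.08 on ICH 1 and ICH 3.

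Assembly factors, which build dynein arms in the cytoplasm before they enter the cilium, split into several patterns. Of 9 tested, 5 were higher in ICH and 4 lower, from −0.28 to 0.49, and none passed. With spike-in centring 9 were higher and 0 lower, so that Dnaaf9, described below, turned as well. With array weights 7 were higher and 2 lower. Dnaaf4 stood at −0.06, 0.07 and −0.01 on sham 1 to 3 and at 0.23, 1.10 and 0.14 on ICH 1 to 3. All its ICH values lay above its sham values, with a difference of 0.49 ± 0.27 (adjusted p = 0.425 by limma), or 0.18 without ICH 2. Dnaaf10 was high on ICH 2 alone, with 0.01 and −0.07 on ICH 1 and ICH 3 and a sham range of −0.22 to 0.17; its difference of 0.44 ± 0.41 was −0.029 without ICH 2. Dnaaf2 did the reverse, at 0.97, −0.24 and 0.64 on ICH 1 to 3 beside −0.14 to 0.17 on sham arrays, and differed by 0.46 ± 0.32. Dnaaf9 lay below sham on all ICH arrays, at −0.24, −0.33 and −0.25, and differed by −0.28 ± 0.13 (adjusted p = 0.376 by limma); it was named after its values were seen. Dnaaf11 had a pair of probes, both well above background, and the dimmer gave −0.42 ± 0.33 where the brighter gave −0.06 ± 0.20. They also ordered the sham arrays differently, with sham 2 at the top by the brighter probe and at the bottom by the dimmer.

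Docking genes anchor the outer arm to the doublet, and of the pair measured Odad1 had the full order. Odad1 stood at −0.38, 0.40 and −0.02 on sham 1 to 3 and at 0.99, −0.52 and 0.08 on ICH 1 to 3. Odad4 stood at −0.20, 0.44 and −0.24 on sham arrays and at 0.60, −0.33 and 0.07 on ICH 1 to 3. In Odad4 sham 3 was slightly lower than sham 1. In both genes ICH 1 was the highest array and ICH 2 lay below every sham value, and the differences of 0.18 ± 0.42 and 0.11 ± 0.30 were smaller than their errors.

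The nexin-dynein regulatory complex links neighbouring doublets. The 4 tested genes with a Drc symbol, which need not be the whole complex, were all lower in ICH, from −0.39 to −0.15, and none passed. With spike-in centring 3 of the 4 were positive, Drc1 at 0.19, Drc3 at 0.10 and Drc7 at 0.029, and without ICH 2 Drc7 was at 0.16. Drc12, also known as Ccdc153 and used as a marker of ependymal cells, stood at 0.15, −0.02 and −0.13 on sham 1 to 3 and at −0.57, −0.37 and −0.22 on ICH 1 to 3. Every ICH value lay below every sham value, and the difference was −0.39 ± 0.15 (unadjusted p = 0.0443, adjusted p = 0.337 by limma), or −0.05 with spike-in centring. Its lowest array was ICH 1, where most motile cilia genes were high. Drc7 followed the shared order, at −0.28, 0.36 and −0.08 on sham arrays, then 0.36, −1.26 and −0.04 on ICH 1 to 3. Drc3 was flat on sham arrays, from −0.01 to 0.02, and stood at 0.09, −0.58 and −0.23 on ICH 1 to 3.

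Radial spokes pass signals from the central pair to the dyneins, and their 5 genes had a median difference of 0.02. Rsph1 and Rsph9, both of the spoke head, stood at 0.24, −0.23 and 0.13 and at 0.34, −0.31 and 0.04 on ICH 1 to 3. Their sham values ran from −0.09 to 0.17 and from −0.09 to 0.13, between the outer ICH values. Rsph10b, like Rsph9, was lowest on ICH 2 and highest on ICH 1, at −0.40, 0.39 and 0.01 on sham arrays, then 0.63, −0.78 and 0.52 on ICH 1 to 3. Rsph14 went its own way, at 0.22, −0.03 and −0.18 on sham arrays, then −0.12, −1.04 and −0.58 on ICH 1 to 3, and differed by −0.58 ± 0.26 (adjusted p = 0.363 by limma), or −0.35 without ICH 2.

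Tekt5 had the largest difference of all 54 genes. Tektins are filament proteins inside the doublet, and Tekt5 is known mainly from the sperm flagellum. Its log2 levels were −5.61, −7.18 and −5.88 on sham 1 to 3, then −4.12, −4.23 and −5.38 on ICH 1 to 3, well above background on all 6 arrays. The lowest ICH value lay above the highest sham value. ICH tissue was 3.13-fold higher (1.65 ± 0.52, unadjusted p = 0.0190, adjusted p = 0.302 by limma), and the difference was 1.17 without sham 2, the lowest array, and 2.05 without ICH 3. Tekt5 also ordered the sham arrays the other way round, since sham 2, high in most motile cilia genes, was its lowest. The other tektins had sham 2 as their highest sham array, and their groups overlapped. Tekt2 stood at −0.27, 0.54 and −0.26 on sham arrays, then 0.43, −1.21 and −0.30 on ICH 1 to 3, and Tekt4 at −0.08, 0.24 and −0.16 on sham arrays, then 0.53, −0.65 and −0.05 on ICH 1 to 3. Their differences were −0.36 ± 0.45 and −0.06 ± 0.31. Tekt1 and Tekt3, named after their values were seen, differed by 0.25 ± 0.31 and 0.07 ± 0.49. All 5 tektins were higher in ICH with array weights, and also without ICH 2.

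Promoter sequences of Odad1, Tekt4 and Tekt2, genes that followed the shared order in full or in part, are shown with matches to the RFX motif because RFX factors are known to bind promoters of ciliary genes at the X-box, an inverted repeat. Windows run from 250 bases before to 50 bases after the gene start, from RefSeq on GRCr8, read 5′ to 3′ on the gene's strand, and capitals mark matches on either strand: in Odad1 and Tekt4 to a relaxed X-box, spelled GTNNCC and, after 3 bases of any kind, GNAAC, and in Tekt4 and Tekt2 to the half-site GTTGCC.
Odad1 (chr1:105531010-105531309, plus strand): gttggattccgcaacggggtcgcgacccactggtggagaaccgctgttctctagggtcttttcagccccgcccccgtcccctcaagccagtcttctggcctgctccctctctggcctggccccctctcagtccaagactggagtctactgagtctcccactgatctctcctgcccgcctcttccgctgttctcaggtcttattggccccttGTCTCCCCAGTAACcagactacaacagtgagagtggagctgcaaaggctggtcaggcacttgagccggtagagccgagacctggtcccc
Tekt4 (chr10:14992034-14992333, plus strand): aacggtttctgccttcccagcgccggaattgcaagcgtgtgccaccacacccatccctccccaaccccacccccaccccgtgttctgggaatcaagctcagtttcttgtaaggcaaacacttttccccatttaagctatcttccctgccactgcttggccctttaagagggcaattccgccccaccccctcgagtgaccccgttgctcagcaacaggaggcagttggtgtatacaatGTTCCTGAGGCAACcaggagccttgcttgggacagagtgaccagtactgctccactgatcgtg
Tekt2 (chr5:143907675-143907974, minus strand): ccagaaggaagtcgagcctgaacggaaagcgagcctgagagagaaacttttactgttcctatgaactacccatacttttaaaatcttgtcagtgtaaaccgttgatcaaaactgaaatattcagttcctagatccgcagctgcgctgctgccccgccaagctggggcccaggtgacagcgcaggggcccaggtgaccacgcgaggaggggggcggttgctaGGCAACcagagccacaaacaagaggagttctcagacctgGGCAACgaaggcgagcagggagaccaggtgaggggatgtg

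The match in Odad1 began 39 bases before the gene start and that in Tekt4 13 bases before it, while the half-sites of Tekt2 began 29 bases before and 10 bases after. The table held a window for 44 of the 56 genes, 48 windows in all, and had none for Foxj1. The relaxed X-box was in 9 of these 48 windows, 18.8%, beside 2.06% of all 33469 windows of this length. The half-site GTTGCC, which lies within the relaxed X-box of Tekt4, was in 15 windows, 31.2%, beside 12.2%. TGTTTNC, a forkhead core, was in 11 windows, 22.9%, beside 21.1%. Of 8 spellings searched on both strands, the perfect palindrome, GTTGCC and GGCAAC parted by AT, was in 0 of the 48 windows and in 0.0568% of all. The genes shown were chosen because their windows hold a match, and a match describes letters and is not a site shown to be bound.

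The largest set, 22 tested Cfap genes, mixes proteins of the axoneme with others made in many cell types. Of these 8 were higher in ICH and 14 lower, from −0.73 to 0.74, with a median of −0.10, and none passed. Cfap300, linked to dynein arm assembly, stood at −0.24, 0.48 and −0.23 on sham 1 to 3 and at 0.51, 0.86 and 0.85 on ICH 1 to 3. Its groups did not overlap, by a small gap between sham 2 and ICH 1, and it differed by 0.74 ± 0.24, or 1.67-fold (unadjusted p = 0.0215, adjusted p = 0.304 by limma). Cfap97 stood at 0.09, −0.06 and −0.04 on sham arrays, then −0.36, −1.21 and −0.26 on ICH 1 to 3, and differed by −0.61 ± 0.27 (adjusted p = 0.362 by limma), or −0.31 without ICH 2. All its ICH values lay below sham, as they did in Cfap69, named after its values were seen, which differed by −0.31 ± 0.20. With spike-in centring Cfap69 was higher in ICH, while Cfap97 kept its direction. Cfap107 and Cfap210, proteins of the inner wall of the doublets, differed by −0.73 ± 0.50 and −0.59 ± 0.39. Cfap107 took its difference in part from sham 2, at 1.10, without which it was −0.19. It was well above background on all sham arrays but on only 2 of the 3 ICH arrays. Cfap210 was low on ICH 2 at −1.43, with ICH 1 and ICH 3 at −0.19 and −0.14 inside its sham range, and without ICH 2 it was −0.17. Cfap36 and Cfap20, the tested Cfap genes of highest mean level, had narrow sham ranges, from −0.03 to 0.04 and from −0.06 to 0.07, and differed by −0.13 ± 0.17 and 0.03 ± 0.18. Cfap68 had a second probe that no array measured well above background. The 2 genes not tested were Cfap20dc, well above background on ICH 2 only, and Cfap97d1, well above background on sham 2 and ICH 1 only.

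Other genes of the motile axoneme, from a list drawn up outside the symbol rule, had the same order. Of 70 listed, 54 had a probe and 50 were tested. Limma called 0 of these 50, with 15 higher and 35 lower and a median of −0.14. At an unadjusted p under 0.05, 1 was higher and 0 lower, where 6.15% and 8.56% of all rows were. Their medians were −0.27, 0.29 and −0.03 on sham 1 to 3, then 0.23, −0.54 and −0.02 on ICH 1 to 3, and 26 of the 50 had the full order, 52%. Dnal4 and Tcte1, the members of highest mean, differed by −0.27 ± 0.17 and −0.07 ± 0.18. Genes of intraflagellar transport and the primary cilium, the non-beating cilium of most cells, rarely had the full order. Their 33 tested members had medians from −0.03 to 0.04 on every array, and the full order in 2 genes, 6.06% beside 4.25% of all rows. The sham part of it, sham 2 highest and sham 1 lowest, was in 10 genes, 30.3% beside 15.9% of all rows. Of the 33, 19 were higher and 14 lower in ICH, with a median difference of 0.08 and 0 called. Bbs4 and Arl3, the members of highest mean, differed by −0.24 ± 0.17 and −0.28 ± 0.15. Among other regulators of multiciliated cells 4 of 16 listed were tested. Rfx1 and Rfx2, both RFX factors, differed by −0.51 ± 0.15 and 0.15 ± 0.14. Tp73, a factor that acts above Foxj1, was named after its values were seen and stood at −0.31, 0.72 and −0.41 on sham 1 to 3, then 0.04, −1.97 and 0.32 on ICH 1 to 3. It was therefore low on ICH 2, where Foxj1 was high.

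**Figure D4:**
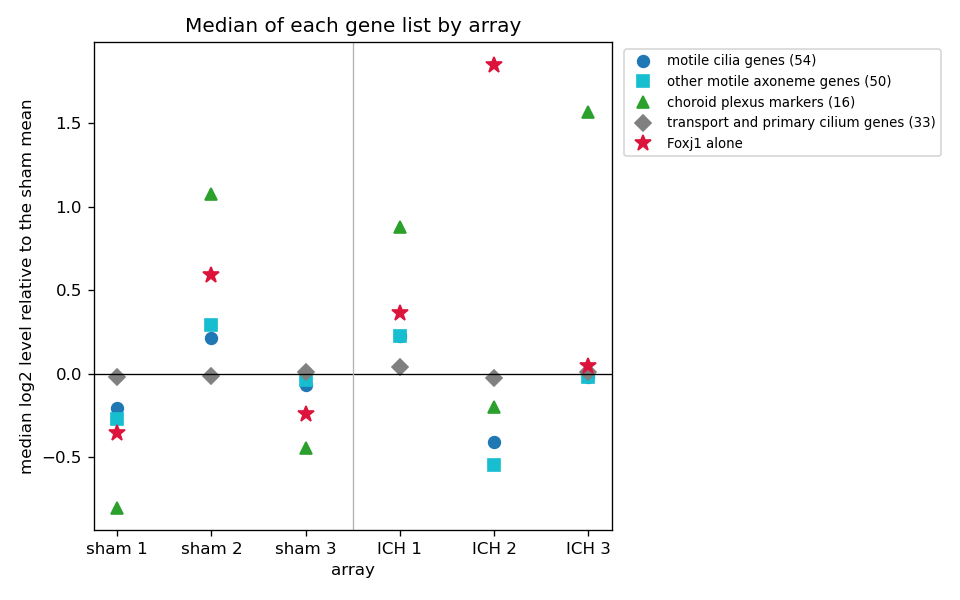
Median log2 level relative to the sham mean (y axis) on each array (x axis) for the motile cilia genes, other motile axoneme genes, choroid plexus markers, and genes of intraflagellar transport and the primary cilium, with Foxj1 alone as stars. Both motile lists share sham 2 and ICH 1 as their high arrays; choroid plexus markers peak on ICH 3 at 1.57, and Foxj1 on ICH 2.

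Markers of tissue at the ventricle varied among arrays too. Of 11 ependymal markers outside the rule 10 had a probe and were tested, with 4 higher, 6 lower, a median of −0.27 and 0 called. Their medians were −0.01, 0.08 and −0.08 on sham 1 to 3, then 0.06, −0.06 and −0.15 on ICH 1 to 3. On ICH 2, Mia, Rarres2, Vim, Cd24 and Nnat lay above their sham means, and Tmem212, Sntn, Hdc, Tppp3 and S100b below. Tmem212 was low on ICH 2, as most motile cilia genes were: it stood at −0.54, 0.85 and −0.31 on sham 1 to 3, then 0.08, −1.88 and −0.15 on ICH 1 to 3. Sntn, of the tip of motile cilia, stood at −0.69, 0.97 and −0.28 on sham arrays, then −0.98, −1.84 and −0.38 on ICH 1 to 3. Both were named after their values were seen. S100b and Cd24, the members of highest mean and also made by other cells, Cd24 being on the neuroblast list too, differed by −0.30 ± 0.12 and 0.07 ± 0.15. The arrays measured whole tissue, so the cell type that held a transcript was not measured. Choroid plexus markers, from the tissue that makes cerebrospinal fluid, had medians of −0.80, 1.08 and −0.44 on sham 1 to 3, then 0.88, −0.20 and 1.57 on ICH 1 to 3. Of 16 tested, 13 were higher, with a median of 0.75 and 0 called. Ttr, which encodes the carrier transthyretin, differed by 0.16 ± 0.47, and Enpp2 by 0.00 ± 0.29. They shared sham 2 and sham 1 as the high and the low sham array with the motile cilia genes but among the ICH arrays were highest on ICH 3 in 14 of 16. Over all 6 arrays ICH 3 was highest in 10 of 16 and sham 2 in 5. Thalamic neuron markers, 3 tested of 5, had medians of −1.25, 0.42 and 0.52 on sham 1 to 3, then 0.57, −1.41 and 0.67 on ICH 1 to 3, so that sham 1 and ICH 2 were low there as well. The part of choroid plexus or of brain region in the order of the motile cilia genes was not tested. Reactive astrocyte and myeloid markers, 6 tested in each list, had medians of 1.26, 1.66 and −0.38 and of 2.29, 2.98 and −0.57 on ICH 1 to 3. The medians of those lists were high on ICH 1 and ICH 2 alike. Within the reactive astrocyte list Cd44, named after its values were seen, went the other way, at −0.67 and −2.85 on ICH 1 and ICH 2. The motile cilia genes were high on ICH 1, though less so with median centring, and, except with spike-in centring, low on ICH 2. Foxj1 was above its sham mean on both arrays.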

How the data were processed

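RNA from 6 tissue samples was labelled with Cy3 and hybridized to 1 array each. Per the file headers, intensity values came from Agilent Feature Extraction 11.5.1.1 (10.7 per the submitters' processing notes), background-subtracted and detrended within each array. The deposited log2 values, whose scaling the labels leave unstated, differed from those used here by a constant of 0.28 to 0.32 per array, within 0.001 for 98.5% to 99.3% of probes. Control spots and spots marked not uniform (1 to 9 per array) were left out, each array's 75th percentile was subtracted from its log2 intensities, and spots of a probe were averaged. Probes were kept if at least 0.5 of their spots were well above background on 3 or more arrays. Accessions were matched without versions to RefSeq on GRCr8, whose coordinates were used only for promoter windows: 18355 probes had 1 symbol, 0 several and 12012 none. The probe of highest mean stood for a gene. The test was limma 3.58.1 (R 4.3.3) without covariates, after a check on simulated data; tables and figures were made with Python 3.11.15.

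Members and lists were chosen with earlier results of these data known. Named were Foxj1 and, per role, the 2 tested genes of highest mean and the 2 (Cfap: 4) of largest difference, and from each other list the 2 of highest mean; exceptions are marked. Alternatives covered scaling, background correction, the deposited values, filters, probe summary, variance model, array weights, blocks and each array left out. Normexp (offset 50) used the median spot signal. All arrays share 1 slide and 1 scan. By the position code of the arrays, the sham samples and ICH 1 lay in slide row 1 and ICH 2 and ICH 3 in row 2.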

Additional observations from a re-analysis of the deposited data

How the results depend on the processing

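Under every alternative run, 0 of the motile cilia genes were called by limma at an adjusted p under 0.05. At an unadjusted p under 0.05 there were 3 genes in the reported fit, 6 with median centring (11.1% against 14.0% of all rows) and 5 with quantile normalization (9.26% against 13.0%), and 1 to 3 with an array left out. The median difference of −0.06 became 0.28 with spike-in centring, where that of all rows was 0.30. It was 0.11 with array weights and 0.23 when slide row was the block. That block compares ICH 1 alone with the sham arrays, since ICH 2 and ICH 3 fill the other row, so its values are those of 1 array. The median difference ran from −0.19 to 0.18 with an array left out. The count without overlap was 13 with spike-in centring (24.1% against 33% of all rows) and 9 to 14 with an array left out, where fewer arrays overlap less by construction. With spike-in centring, chosen for the array orders after the data were seen, ICH 1 was above ICH 2 in 30 genes, against 23% of all rows. The full order was then in 13 genes, against 1.49% of all rows. Median centring left it in 14 genes, against 2.34% of all rows. The cause was not tested.

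Directions of small differences changed. Median centring gave −0.043 for Cfap20, −0.031 for Rsph1 and −0.053 for Rsph9. Quantile normalization gave 0.043 for Cfap36 and −0.0037 for Rsph9, and normexp gave −0.0098 for Rsph9. Spike-in centring gave 0.21 for Cfap36, 0.26 for Dnai7, 0.10 for Drc3, 0.029 for Drc7 and 0.28 for Tekt4. Array weights gave 0.045 for Drc7, 0.029 for Tekt2 and 0.21 for Tekt4. The slide row block, and so ICH 1 alone, gave 0.10 for Dnai1, 0.064 for Dnai7, 0.088 for Drc3, 0.36 for Drc7, 0.43 for Tekt2 and 0.53 for Tekt4. With an array left out, Dnah1 ran from −0.029 to 0.69, Dnai1 from −0.62 to 0.15, Dnaaf10 from −0.029 to 0.69, Odad1 from −0.22 to 0.53 and Odad4 from −0.13 to 0.34. Drc7 ran from −0.65 to 0.16, Rsph1 from −0.054 to 0.18, Rsph9 from −0.13 to 0.19, Rsph10b from −0.13 to 0.57, Tekt2 from −0.76 to 0.063 and Tekt4 from −0.35 to 0.24. Cfap20 ran from −0.092 to 0.19 and Cfap36 from −0.24 to 0.023. Foxj1, Tekt5, Cfap300, Cfap97, Cfap107, Cfap210, Dnaaf2, Dnaaf4, Dnai4, Drc12 and Rsph14 kept their direction in the alternatives run for them, and the lowest adjusted p of Tekt5 was 0.143.

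Labels give both groups replicate numbers 1 to 3. Deviations of same-numbered samples correlated at −0.19, −0.01 and 0.07 across all rows, and at −0.42, −0.31 and 0.01 across the motile cilia genes. With 3 arrays per group these values do not show pairing and cannot exclude it, and the reported fit leaves the samples unpaired. With the replicate number as a block, 0 motile cilia genes were called, 4 had an unadjusted p under 0.05 (7.41% against 10.9% of all rows) and the median difference was −0.06. Slide and scan could not be fitted as a block, since all arrays share them.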

Other observations

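Marker lists of other brain cells, which share no gene with the motile cilia genes, also differed among arrays. Striatal neuron markers, 8 tested, had medians of 0.40, 0.45 and −0.85 across sham 1 to 3, then −0.84, −1.48 and −1.29 across ICH 1 to 3, so that sham 3 lay with the ICH arrays. All 8 were lower in ICH, 6 with an unadjusted p under 0.05 by limma, where 8.56% of all rows were lower at that level. The signalling genes Ppp1r1b and Pde10a differed by −0.79 ± 0.33 and −0.85 ± 0.28. Cortical neuron markers, 5 tested of 6, were all higher in ICH, with a median difference of 1.02. Of the 5, 4 had an unadjusted p under 0.05 by limma, where 6.15% of all rows were higher at that level. Neurod6, a factor of cortical excitatory neurons, differed by 2.04 ± 0.16 (adjusted p = 0.0821 by limma) and Neurod2 by 0.90 ± 0.29.

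Neuroblast markers, 6 tested of 9, had a median difference of −0.15, with Dlx1 at −0.41 ± 0.15. Homeostatic astrocyte markers, 5 tested, had a median of −0.35. Aqp4, the water channel of astrocyte endfeet, differed by −0.45 ± 0.13 (adjusted p = 0.301 by limma), and Gja1, a gap junction protein, by −0.35 ± 0.34. Gfap and Timp1 of the reactive astrocyte list differed by 0.52 ± 0.43 and 1.17 ± 0.64, and Cd68 and Ptprc of the myeloid list by 0.56 ± 0.50 and 0.33 ± 0.60. Slc17a6 and Prkcd of the thalamic list differed by −0.74 ± 0.67 and −0.06 ± 0.75. None of these differences passed the test. The part of these lists in the motile cilia values was not tested.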
